A study of Mus musculus with 6 samples.

Results

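Inflammasome genes were followed in mouse leukaemia cells, pre-B cells that BCR-ABL1 had transformed. This fusion kinase drives Philadelphia chromosome-positive lymphoblastic leukaemia. The 9 genes are Nlrp1a, Nlrp1b, Nlrp3, Nlrc3, Nlrc5, Nlrx1, Aim2, Pycard and Casp1, out of 19938 genes that have a probe set of their own on the array. They are sensors of the NLR and PYHIN families, the adaptor Pycard and the protease Casp1, and they were chosen by the measured log2 differences between the groups of this series, in which Nlrp1a stood out, and by their known roles. Their differences are therefore given as a description and not as a test.

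All 6 samples were cells of Sox4 fl/fl genotype from mice of the cross 129SvEv x C57BL/6J, aged 5 weeks, so both groups carried floxed Sox4, a transcription factor of B-cell progenitors. The transduced construct was ERT2 in the 3 control samples, that is, the hormone-binding domain of the oestrogen receptor, and Cre-ERT2 in the 3 others, a recombinase that 4OHT (4-hydroxytamoxifen) switches on. For all 6 samples, controls included, RNA was taken 24 h after 4OHT, which was given to induce deletion. The sources used here do not give the promoter that drove each construct or say whether the samples of a group were separate cultures. A p-value thus covers only the spread among these samples, which may be technical. No group combined Cre-ERT2 with unfloxed Sox4, so loss of Sox4 and activity of Cre cannot be told apart.

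Inflammasomes are protein platforms of the innate immune system. A sensor that detects a microbial product or a disturbance of the cell activates caspase-1. Many sensors, but not all, need the adaptor ASC, the product of Pycard, for this. Caspase-1 matures interleukins 1 beta and 18 and cleaves gasdermin D so that the cell membrane is pierced (pyroptosis). They are best known from macrophages. In mice an activating mutation of Nlrp1a makes haematopoietic progenitors die by pyroptosis, so the sensor also works in blood-forming cells. NLRC3, NLRC5 and NLRX1 belong to the same NLR family but are known mainly for other work: NLRC3 restrains innate and T-cell signalling, NLRC5 activates MHC class I genes and NLRX1 sits at mitochondria.

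Nlrp1a and Nlrp1b are neighbouring paralogs, and the 250 bases before their start sites show how alike the loci are. Both are shown because one gene read 4.02-fold higher in the Cre-ERT2 samples and the other differed little. The sequences are from RefSeq, build GRCm38.p6, minus strand, at chr11:71144705-71144954 for Nlrp1a and chr11:71230734-71230983 for Nlrp1b, 5′ to 3′. Capitals mark bases that differ between the genes or have no partner in the alignment.
Nlrp1a: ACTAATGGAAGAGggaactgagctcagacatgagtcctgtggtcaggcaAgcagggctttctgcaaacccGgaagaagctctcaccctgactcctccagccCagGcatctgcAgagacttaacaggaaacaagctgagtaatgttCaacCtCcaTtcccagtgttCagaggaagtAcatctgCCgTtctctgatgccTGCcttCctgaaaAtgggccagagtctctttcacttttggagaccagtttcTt
Nlrp1b: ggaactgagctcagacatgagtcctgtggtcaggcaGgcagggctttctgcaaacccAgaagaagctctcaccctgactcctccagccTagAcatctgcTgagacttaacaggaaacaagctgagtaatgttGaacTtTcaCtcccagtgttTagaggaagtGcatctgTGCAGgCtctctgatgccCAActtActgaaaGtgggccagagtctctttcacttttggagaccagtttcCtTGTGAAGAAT
Of 237 aligned bases 217 were identical (91.6%), with 3 gap positions between them. The other Nlrp1b start site in the table, at chr11:71201457-71201706, shared 62.8% of 180 aligned bases with Nlrp1a.

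Entries were found for 8 of the 9 genes, with 11 start sites in all. The 250 bases before each start site were searched on both strands for 2 motifs. The SOX core ACAAAG was found before 2 start sites, those of Aim2 and Casp1, and it is present in 16.5% of 32841 promoter windows of that length. The STAT palindrome TTCNNNGAA was found before both Nlrx1 start sites, and in 7.02% of all windows. The 2 Nlrx1 windows overlap and share the same match. No window of these genes held both motifs, and a match is only a run of letters, not a bound site.

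The arrays were alike in overall brightness, with median intensities between 273 and 279, and their number limits the precision. Sox4 itself was 40.3% of the control mean in the Cre-ERT2 samples (adjusted p = 0.000434, limma). ERT2 replicate 2 lay farthest from its group, with SDs of log2 differences of 0.231 and 0.242 from the other controls, which differed by 0.184 from each other. Of 9 pre-B markers, such as Cd79a, Ebf1 and Igll1, 8 did not pass the test and Il7r fell, from a mean intensity of 6617 to 3481. Pax5 came closest of the 8, at 86.0% of the control mean (limma adjusted p = 0.0552). The summed intensity of the 9, Il7r included, was 86223 to 86825 in ERT2 and 80204 to 81715 in Cre-ERT2 samples.

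Among the sensors, Nlrp1a was the gene with the clearest difference. Its probe set (10388047) read 102, 109 and 110.2 in the ERT2 samples and 427, 420.0 and 444 in the Cre-ERT2 samples. All 3 Cre-ERT2 samples thus lay far above all 3 controls, with no overlap. The means were 107 ± 4.75 (SD, n = 3) and 430.2 ± 12.5 (SD, n = 3), a 4.02-fold difference in intensity. The control mean is at the level of markers of other cell types, such as Ly6g (101, a granulocyte gene) and Cd3d (115, a T-cell gene). The table has no detection call, so Nlrp1a was not shown to be above background in controls and the ratio may be a lower bound; Nlrp1b and Nlrp3 read at a similar level. On the scale of log2(intensity + 1) this is a difference of 2.00 (SE 0.0543, 95% interval 1.87 to 2.13).

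The paralog Nlrp1b, whose product senses anthrax lethal factor in some mouse strains, differed little. Its probe set read 118, 116 and 110.0 in ERT2 and 147, 124 and 130.3 in Cre-ERT2 samples. The groups did not overlap, but the lowest Cre-ERT2 value lay close to the highest control. The log2 difference was 0.21 (SE 0.0755, 95% interval 0.03 to 0.39), and it did not pass the threshold of the fit. The pseudogene Nlrp1c-ps, the third copy at this locus, was looked at after its values were seen. It read 134, 129 and 157 in ERT2 and 176, 218 and 203 in Cre-ERT2 samples. It rose by 0.50 on the log2 scale (SE 0.106, limma adjusted p = 0.0438), a call that, among fits without 1 array, was kept only when ERT2 replicate 3 or Cre-ERT2 replicate 1 was the array left out (0.101 to 0.155 otherwise) and that ended under each of 3 other normalizations (0.0514 to 0.057). Probe sequences are not in the files, so how far the probe sets of these paralogs read each other's RNA was not tested.

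**Figure D1:**
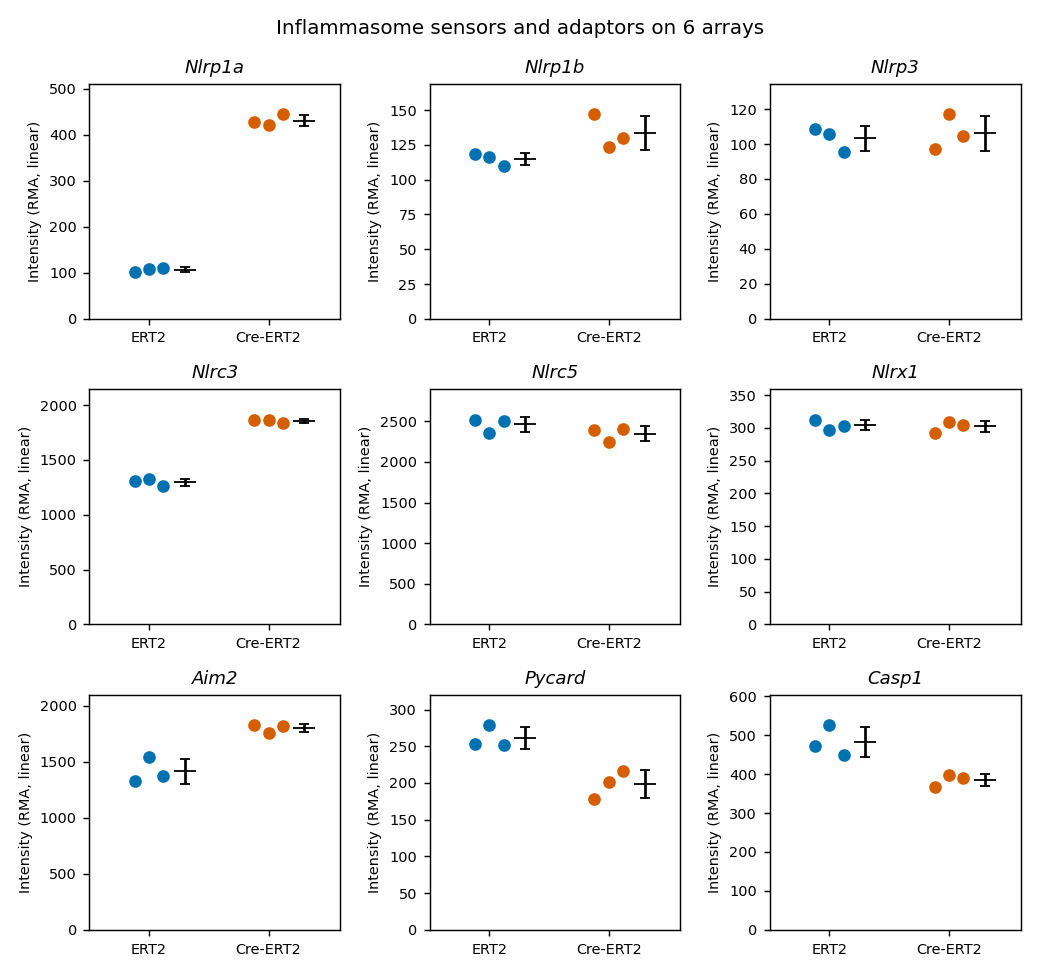
Intensity (RMA, linear scale, each axis from 0) of the 9 genes on each of 6 arrays, with points for single arrays (blue ERT2, orange Cre-ERT2) and black bars for the mean ± SD of 3. Nlrp1a moves from 102 to 110.2 in controls to 420.0 to 444 in Cre-ERT2 samples, while the points of Nlrp3, Nlrc5 and Nlrx1 overlap between groups.

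Nlrp3, the sensor of ion fluxes and other disturbances of the cell, showed no detectable difference. It read 109, 106 and 95.3 in ERT2 and 97.0, 117 and 105 in Cre-ERT2 samples, so the groups overlapped. The log2 difference was 0.04 (SE 0.0868, 95% interval -0.17 to 0.25).

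Aim2, which detects double-stranded DNA in the cytosol, was higher in the Cre-ERT2 samples. It read 1325, 1539 and 1376 in ERT2 and 1824, 1757 and 1815 in Cre-ERT2 samples. The groups did not overlap, and ERT2 replicate 2 was the highest control. The means were 1413 ± 112 (SD, n = 3) and 1799 ± 36.1 (SD, n = 3), a 1.27-fold difference, or 0.35 on the log2 scale (SE 0.0672). Its adjusted p in the fit lay above 0.05 (0.0953 to 0.127) when any single array but ERT2 replicate 2 was left out.

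Nlrc3, the restraining NLR, was higher by a similar amount in every Cre-ERT2 sample. It read 1304, 1326 and 1261 in ERT2 and 1864, 1866 and 1838 in Cre-ERT2 samples. The spread within each group was small against the gap between them, and the ratio of means was 1.43. The log2 values differed by 0.52 (SE 0.0454, 95% interval 0.41 to 0.63).

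Nlrc5 and Nlrx1 showed no detectable difference. The brightest probe set of Nlrc5 read 2519, 2361 and 2504 in ERT2 and 2396, 2244 and 2404 in Cre-ERT2 samples, a log2 difference of -0.07 (SE 0.0542, 95% interval -0.20 to 0.06). Nlrc5 has 19 probe sets, which lay between 314 and 2519 in intensity. Their log2 differences ran from -0.07 to 0.10 with a median of -0.00054; 9 were above 0, 10 below, and none passed the threshold (0 of 19 in limma, also 0 at an unadjusted p under 0.05). Nlrx1 read 312, 297 and 304 in ERT2 and 293, 309.6 and 305 in Cre-ERT2 samples, a log2 difference of -0.01 (SE 0.0488, 95% interval -0.13 to 0.11). Its dimmer second probe set gave 0.03. Averaging a gene's probe sets turned the sign of both (0.01 for Nlrc5 and 0.01 for Nlrx1), still close to 0.

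**Figure D2:**
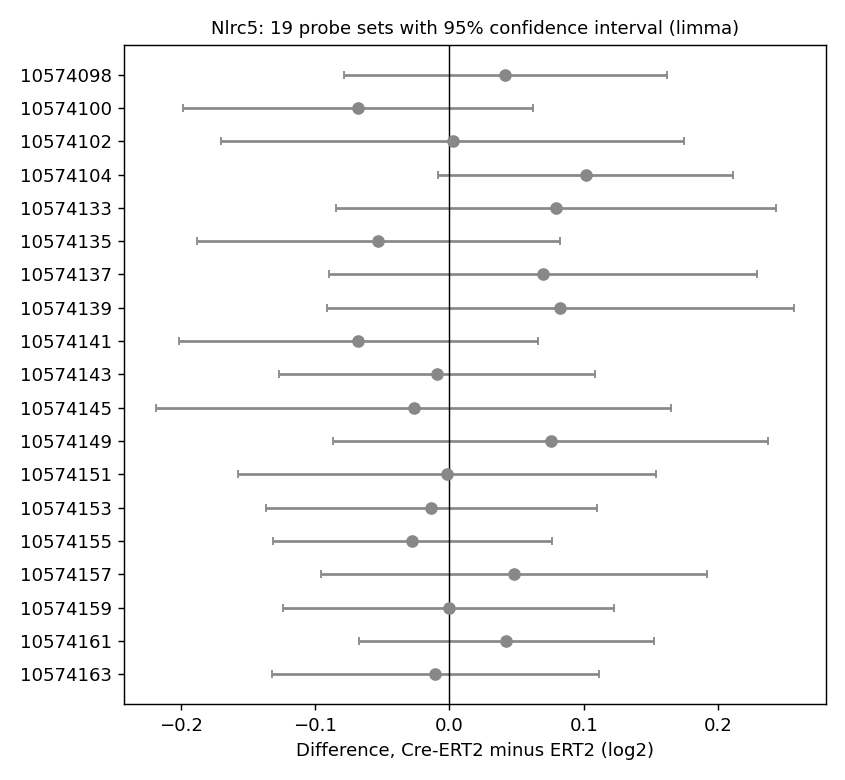
Log2 difference (Cre-ERT2 minus ERT2, x axis) of each of the 19 Nlrc5 probe sets (y axis, by identifier), with limma's 95% confidence interval from 3 against 3 arrays. The points scatter on both sides of 0 between -0.07 and 0.10.

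The adaptor gene Pycard and the protease gene Casp1 read lower in the Cre-ERT2 samples. Pycard, which encodes the adaptor that links many sensors to caspase-1, read 254, 279 and 251 in ERT2 and 178, 202 and 217 in Cre-ERT2 samples. The groups did not overlap, and the Cre-ERT2 mean was 76.2% of the control mean. The log2 difference was -0.39 (SE 0.085, 95% interval -0.60 to -0.19), and its adjusted p lay above 0.05 without any 1 of the 6 arrays (0.0602 to 0.136).

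Casp1, the protease that carries out the response, was also lower. It read 473, 525 and 450.1 in ERT2 and 367, 397 and 389.5 in Cre-ERT2 samples. Every Cre-ERT2 sample lay below every control, and ERT2 replicate 2 was again the highest. The Cre-ERT2 mean was 79.7% of the control mean, a log2 difference of -0.33 (SE 0.0716, 95% interval -0.50 to -0.15). It fell just short of the threshold of the fit and passed it under 9 of 18 other settings.

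Over the 9 genes, 3 were past the threshold and higher (Nlrp1a, Nlrc3 and Aim2), where 4.38% of all genes were. Pycard alone was past it and lower, where 3.72% of all genes were. In 6 of the 9 the groups did not overlap, as in 28.3% of all genes. The median log2 difference was 0.04 over the 9 genes and 0.02 over all genes. Since the set was proposed on this contrast, nothing is read from these shares.

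**Figure D3:**
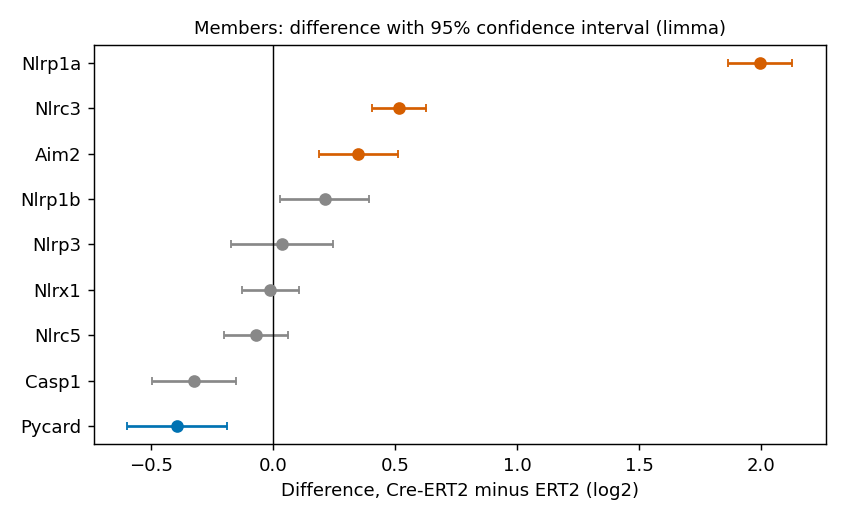
Log2 difference (Cre-ERT2 minus ERT2, x axis) of the 9 genes, sorted, with limma's 95% confidence interval from 3 against 3 arrays; orange is past the threshold and higher, blue past it and lower, grey not past it. Nlrp1a lies at 2.00, Nlrc3 and Aim2 at 0.52 and 0.35, and Casp1 and Pycard at -0.33 and -0.39.

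Apart from the pseudogene Nlrp1c-ps, given above, no neighbour of Nlrp1a was called. Of the 5 protein-coding genes with a probe set on each side, 0 of 10 passed the test in limma. At an unadjusted p under 0.05 there were 2, Pimreg and Nlrp1b itself. Their log2 differences lay between -0.14 (6330403K07Rik) and 0.25 (Pimreg, limma adjusted p = 0.0954). Pimreg passed among the brighter 50% of probe sets, under array weights, with one-gene probe sets only and with gene means (0.0287 to 0.0447). Mis12, a kinetochore gene, and Derl2, of protein degradation at the endoplasmic reticulum, lay at -0.04 and 0.06.

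**Figure D4:**
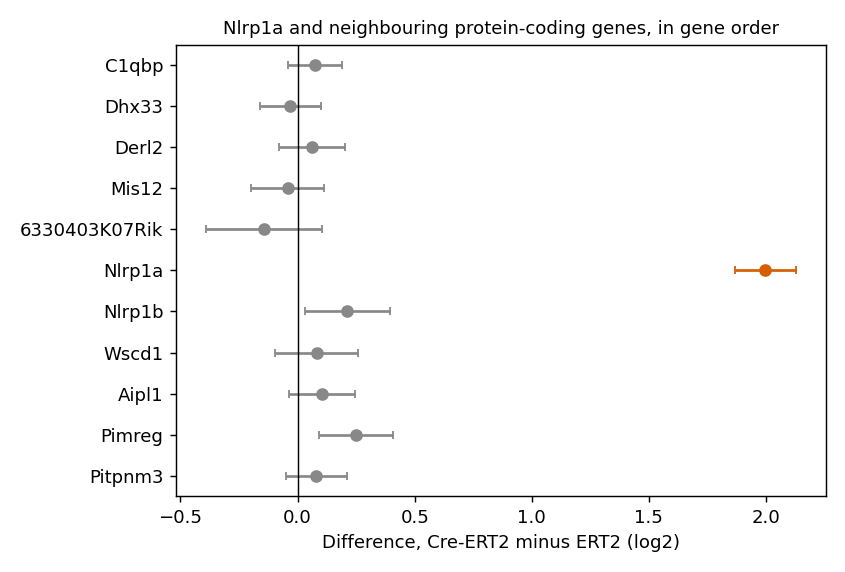
Log2 difference (Cre-ERT2 minus ERT2, x axis) of Nlrp1a and the 5 protein-coding genes on each side of it in gene order (y axis), with limma's 95% confidence interval. Nlrp1a lies at 2.00 and the 10 neighbours between -0.14 and 0.25.

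The genes with the pattern most like that of Nlrp1a over the 6 arrays were Zfp182, Galnt14, Egln3, St6galnac5 and Elovl7. Likeness was the Euclidean distance between log2 values after subtraction of each gene's ERT2 mean, and it ran from 0.219 for Zfp182, a zinc-finger gene, to 0.381 for Elovl7, a fatty acid elongase. Zfp182 read 171, 184 and 175 in ERT2 and 714, 797 and 738 in Cre-ERT2 samples. With 2 groups of arrays, this measure mainly finds genes with a difference of similar size.

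Other sensors of the same families, listed by role, differed in both directions. Over all genes 4.38% rose and 3.72% fell, so nothing is read from a count of 1 in this list or in those that follow. NAIP proteins recognise bacterial flagellin and secretion-system proteins and then assemble with NLRC4. Naip2 read 134, 146 and 144 in ERT2 and 261, 288 and 285 in Cre-ERT2 samples. It rose by 0.97 (SE 0.0627, limma adjusted p = 0.00033), while its partner Nlrc4 fell by 0.49 (SE 0.0676, limma adjusted p = 0.0082). Nlrc4 read 144 to 159.9 in ERT2 and 105 to 117 in Cre-ERT2 samples. The close relatives Naip6 and Naip5 rose by 0.64 and 0.33, and cross-reading between Naip copies was not tested. In all 4 of 13 rose and 1 fell, the fourth being Nlrp10 (0.27), which was named after its values were seen. Naip5 was no longer called when any single array but ERT2 replicate 1 was left out (0.0501 to 0.0982), nor was Nlrp10 when any 1 of the 6 was (0.0565 to 0.186) or under median centring (0.0549). Ciita, Mefv, Nod1, Nod2, Nlrp2 and Nlrp6 did not pass the test. All these probe sets except Nlrp10 and Ifi203 belonged to the dimmer 50% of the array.

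Among effectors and cytokines, 1 of 10 rose and 1 fell. Gsdmd, the pore-forming substrate of caspase-1, read 322, 403 and 334 in ERT2 and 208, 215 and 213 in Cre-ERT2 samples. Every Cre-ERT2 value was below every control. It fell by 0.73 (SE 0.0897, limma adjusted p = 0.00509). Casp4, whose product (caspase-11 in the mouse) senses bacterial lipopolysaccharide and cleaves the same protein, read 141, 196 and 163 in ERT2 and 240, 252 and 247 in Cre-ERT2 samples. It rose by 0.57 (SE 0.117, limma adjusted p = 0.0396) and was no longer called when any single array but ERT2 replicate 2 was left out (0.0709 to 0.136) or under cyclic loess (0.0619). The cytokine genes Il1b and Il18 had log2 differences of -0.03 and -0.17 and dim probe sets, with mean intensities of 150.2 and 62.6 in ERT2 samples.

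Of the regulators, 1 of 18 rose and 1 fell. Bcl2l1 and Bcl2, whose survival proteins can bind human NLRP1, went opposite ways. Bcl2l1 fell by 0.79 (SE 0.0554, limma adjusted p = 0.000444). Bcl2 rose by 0.25 (SE 0.0499, limma adjusted p = 0.0358) and was likewise called only with all arrays or without ERT2 replicate 2 (0.0945 to 0.148 otherwise). Dpp8 and Dpp9 encode peptidases that hold NLRP1 proteins inactive. Ubr2 encodes a ubiquitin ligase of the N-end rule, which activation of NLRP1B by anthrax lethal factor needs. Dpp8, Dpp9 and Ubr2 had log2 differences of 0.04, 0.03 and 0.00267. None of these 3 passed the test.

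In interleukin 1 and 18 receptor signalling, 1 of 12 rose and 0 fell in limma, against 5 and 1 at an unadjusted p under 0.05. Il1r2 encodes a decoy receptor that binds interleukin 1 without signalling. It read 309.6, 287 and 289 in ERT2 and 780.1, 826 and 778 in Cre-ERT2 samples, and rose by 1.43 (SE 0.0544, limma adjusted p = 5.1e-05). Its lowest Cre-ERT2 value was well above its highest control. Il18rap, an interleukin 18 receptor chain, had a difference of 0.33 (limma adjusted p = 0.0621), which passed without ERT2 replicate 2 (0.0183) and under 3 of the other settings.

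None of the 8 measured genes of the list of MHC class I genes tied to NLRC5 passed the test in limma (0 rose, 0 fell). They were B2m, H2-M3, Tap1, Tap2, Tapbp, Psmb8, Psmb9 and Psmb10. The list was written from general knowledge, and whether each gene depends on NLRC5 in these cells was not tested. The class I genes H2-K1, H2-D1, H2-Q7 and H2-T23 had no probe set of their own and were not measured. B2m, the light chain of class I, and H2-M3 came closest, with log2 differences of -0.20 each (limma adjusted p = 0.129 and 0.177). B2m passed under an intensity trend (0.0306) or array weights (0.0442), and H2-M3 under array weights or 2 other normalizations (0.0403 to 0.0482). Neither Nlrc5 nor these genes thus showed a called difference, although at unadjusted p under 0.05 there were 2 of the 8, both lower. Among partners of NLRC3 and NLRX1 in nucleic acid sensing, 1 of 12 rose and 1 fell. Cgas, the DNA sensor that makes the messenger for STING, read 180.1, 186 and 176 in ERT2 and 89.0, 94.4 and 101 in Cre-ERT2 samples. It fell by 0.93 (SE 0.0616, limma adjusted p = 0.000364). Its Cre-ERT2 values were as dim as Nlrp1a in controls and were not shown to be above background, so the size of the fall is uncertain. Sting1 itself, which NLRC3 restrains, rose by 0.29 (SE 0.0486, limma adjusted p = 0.0184) and was no longer called (0.0561 to 0.0856) when ERT2 replicate 1 or a Cre-ERT2 array was left out.

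**Figure D5:**
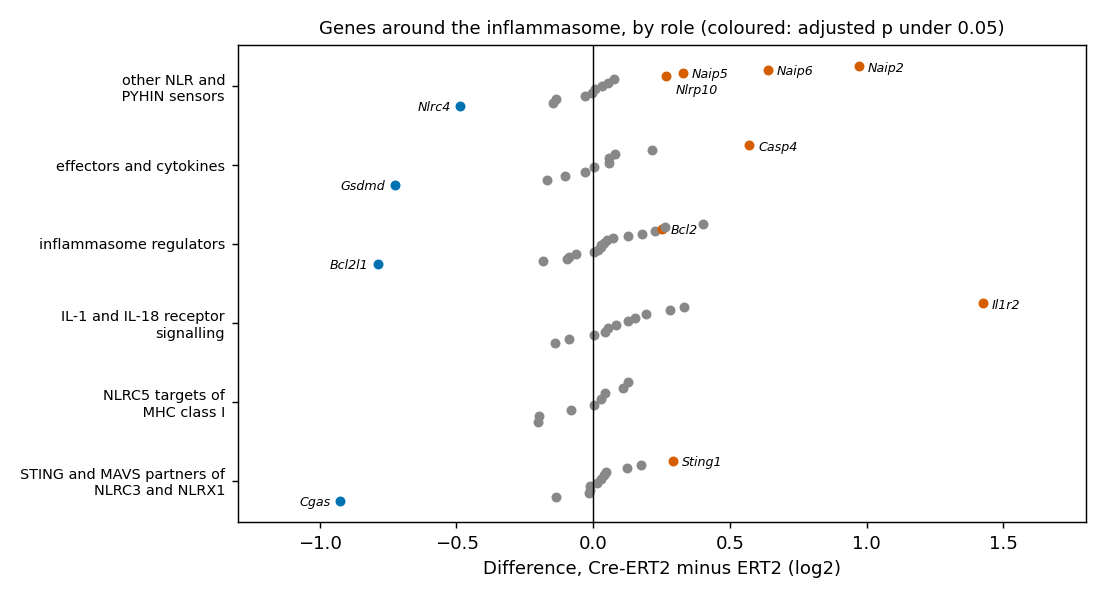
Log2 difference (Cre-ERT2 minus ERT2, x axis) of 73 genes around the inflammasome in 6 lists by role (y axis), each point 1 gene; orange rose and blue fell at limma adjusted p under 0.05, grey did not pass. Il1r2 lies farthest to the right at 1.43 and Cgas farthest to the left at -0.93.

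Over the 6 lists 8 of 73 genes rose and 4 fell, where 4.38% and 3.72% of all genes did. The number that fell was near the share over the array. Since the lists were chosen with earlier results of these data known, nothing is read from the number that rose. The median log2 difference was 0.04, against 0.02 over all genes. Leaving out a single Cre-ERT2 array brought the number risen to 3, and leaving out ERT2 replicate 1 or ERT2 replicate 3 brought it to 4.

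Because inflammasome genes are abundant in myeloid cells, markers of such cells are given beside these results. Of 9 macrophage and monocyte markers 2 rose and 1 fell: Lyz2, lysozyme, by 1.40, Fcgr1, an IgG receptor, by 0.64, and Itgam, an integrin chain, with a log2 difference of -0.49. Csf1r and Adgre1, which define macrophages, lay at -0.02 and -0.06 and did not pass the test. The summed intensity of the 9 was 1857 to 1949.6 in ERT2 and 2402 to 2575 in Cre-ERT2 samples. Without Lyz2, the marker that rose most, the other 8 summed to 1491 to 1604 and 1577 to 1583, which overlap. These 8 include Fcgr1, which rose, and Itgam, which fell. None of 10 granulocyte markers passed in limma (0 of 10, and 1 at an unadjusted p under 0.05), with sums of 1304 to 1400.0 and 1353 to 1437. Of 8 dendritic-cell markers 1 passed, Flt3, which rose by 0.34 (limma adjusted p = 0.0428) but was not called without any 1 of the 6 arrays (0.0516 to 0.152) or under median centring or cyclic loess (0.0528 and 0.0513). The 8 dendritic-cell markers summed to 1473 to 1511 in ERT2 and 1546 to 1625 in Cre-ERT2 samples, which do not overlap. These sums include Flt3, with means of 328 in ERT2 and 414 in Cre-ERT2 samples. Flt3 was the only 1 of the 8 in which the groups did not overlap, and the other 7 did not pass the test. Itgam was not called without ERT2 replicate 1 or Cre-ERT2 replicate 2 (0.0574 and 0.0558). The part of these cells in the results was not tested, and in bulk RNA fewer cells of a type and less RNA per cell cannot be told apart.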

How the data were processed

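Total RNA of 6 samples was hybridised to Affymetrix arrays, 1 per sample. The authors' intensities came from RMA (background correction, quantile normalization, probe summary), per the submitters' processing notes; the sources used here give no version, annotation or build. The deposited intensities are linear (6.27 to 26714), so log2(intensity + 1) was analysed, which slightly understates changes of dim probe sets. Quantile normalization hides a shift common to all genes. The table has no detection call, so transcript and background cannot be separated for dim probe sets.

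The probe table names 1 gene for 21789 of 35556 probe sets, several for 1621 and none for 12146; only the first were named. Where a gene had several, the one brightest on average was used. Groups were compared with limma 3.58.1 in R 4.3.3 (lmFit, eBayes, all probe sets, 3 against 3, two-sided, Benjamini-Hochberg, threshold 0.05), after a test on simulated data. Errors are limma's moderated standard errors.

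The 9 genes, the 6 pathway lists and the marker lists were chosen with earlier results of these data known. Of 91 list genes 73 had a probe set of their own; T and NK, stromal and erythroid marker lists had 0 genes past limma's threshold (1, 0 and 0 at an unadjusted p under 0.05). Named were the 9 genes, Sox4, in each list up to 4 past the threshold with the smallest p (otherwise the 2 with the smallest p), 5 neighbours per side of Nlrp1a and the 5 genes most like it; others named in the text were added after their values were seen. Promoter windows (RefSeq, GRCm38.p6) were aligned with Biopython 1.88. Alternatives changed the empirical Bayes step, filter, normalization, weights, block, pseudocount, probe sets and arrays used.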

Additional observations from a re-analysis of the deposited data

How the results depend on the processing

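Log2 differences of Nlrp1a and Nlrc3 were 1.86 to 2.06 and 0.48 to 0.53 over the alternatives that gave a value; these are refits of the arrays on which the genes were chosen, not independent support. Nlrp1a, Nlrp1b, Nlrp3 and Pycard gave no value among the brighter 50% of probe sets. Without single arrays the count of higher genes among the 9 lay between 2 and 3 and that of lower genes was 0. The latter was 2 (Pycard and Casp1) under an intensity trend, median centring, a further quantile normalization, array weights, a pseudocount of 16, one-gene probe sets only, or an average over each gene's probe sets. Under cyclic loess and among the brighter 50% it was 1, Casp1 in place of Pycard. Of the pathway genes 14 rose under array weights and 13 with one-gene probe sets or gene means; 7 fell under cyclic loess or array weights and 1 among the brighter 50%. Without single arrays 3 to 9 rose and 4 fell. Array weights gave 2415 higher and 1612 lower probe sets over the whole array, against 1143 and 1009; without single arrays the ranges were 606 to 1319 and 654 to 883. With the replicate number as a block, 0 of the 9 genes were past the threshold and lower and 2 were higher, as the adjusted p of Aim2 (0.0787) and Pycard (0.0705) lay above 0.05. Whether the numbers pair the samples is not known. Deviations from the group means correlated at 0.205, 0.344 and -0.0491 for numbers 1, 2 and 3, across probe sets. Correlations between unlike numbers were not computed, so these values cannot decide it. The cause of these changes was not tested.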
